A study of Rattus norvegicus with 8 samples.

Results

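The receptor genes of thyroid, retinoid, vitamin D and glucocorticoid hormones are described here (10 of the 32883 genes in the deposited table): Thra and Thrb for thyroid hormone, Rxra, Rxrb and Rxrg for the shared partner receptors of the retinoid X family, Rara and Rarb for retinoic acid, Vdr for vitamin D, Nr3c1 for glucocorticoids and Ppard for fatty acid ligands. They were chosen by symbol as nuclear receptors for hormones that steer oligodendrocyte maturation, and they filled 11 rows of the table because Nr3c1 had 2. RNA had been sequenced from primary cultures of oligodendrocyte precursor cells (OPCs), the dividing glia that later form myelin, made from the cerebral cortex of Sprague Dawley rats aged 1 to 2 days. There were 4 libraries from male and 4 from female animals, and no factor other than sex is labelled. In both groups the cells had left mixed glia grown in DMEM with 20% serum as the non-adherent fraction, and were then kept for 4 to 5 days in Neurobasal medium with PDGF and FGF (10 ng/ml each), 2% B27, glutamine and antibiotics. No label says which animals or litters went into a library, so the p-values speak of the spread among the deposited samples alone, and that spread may be technical.

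Nuclear receptors are transcription factors whose activity is set by small lipophilic ligands. Thyroid hormone, retinoic acid, vitamin D and PPAR receptors bind DNA mostly as pairs with a retinoid X receptor, while the glucocorticoid receptor waits in the cytoplasm with Hsp90 chaperones until hormone sends it to the nucleus. Thyroid hormone and glucocorticoids are known as signals that time the exit of OPCs from division and their maturation, and the B27 supplement used in these cultures is known to hold triiodothyronine, corticosterone and retinyl acetate. Levels are given as the authors' FPKM, a fragment count divided by transcript length and library size, which puts genes of different length on 1 scale. Differences are log2(FPKM + 1) of male minus that of female cultures, each with its standard error, and a gene is called when its Benjamini-Hochberg adjusted p over all 11263 tested genes is under 0.05 in limma. Genes were tested when their mean over the 8 libraries was at least 1 FPKM, which 7 of the 11 rows (6 of the 10 genes) met.

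How deeply the libraries were sequenced is unknown, and their depth relative to male 1, read from the steps between low values, lay between 0.303 (female 1) and 1. Markers of other cell types differed between the sexes in the same libraries. Of 15 tested microglia and macrophage markers 12 were called as lower in male cultures, where 2.89% of all tested genes were. All 15 had a negative log2 difference. The summed level of the list was 68.9 to 88.1 FPKM in male and 206 to 255 FPKM in female libraries, with no marker at 0 throughout. Of 11 tested OPC markers 7 were called as lower in male cultures (summed 2193 to 2351 against 2692 to 3024 FPKM in female ones). All 11 had a negative log2 difference. Of 14 tested maturation markers 3 were called as lower in male cultures (summed 742 to 880 against 991 to 1176 FPKM). Those 14 were divided, with 8 below 0, 6 above 0 and a median log2 difference of -0.08. Of 15 tested neuron markers 5 were called as higher in male cultures, where 3.14% of all tested genes were (summed 379 to 414 against 341 to 467 FPKM). In that list 10 lay above 0 and 5 below. Of 8 astrocyte markers none was called by limma (4 at an unadjusted p under 0.05, summed 225 to 246 against 225 to 254 FPKM). The share of all tested genes at that unadjusted p is not given here. No fibroblast, endothelial or mural marker reached the filter (summed 1.40 to 2.79 against 0.142 to 2.91 FPKM). Male 1 and female 3 departed from their groups in a shared direction (r = 0.242 across the 11263 tested genes, which are no independent replicates). The calls were therefore also computed without male 1 and female 3. Their relative depths, 1 and 0.981, were the highest, ahead of male 3 at 0.768. The part of depth in this shared departure was not tested.

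One receptor dominated the group in all 8 libraries. Thra (ENSRNOG00000009066), the gene of thyroid hormone receptor alpha, averaged 116 FPKM, and 817 of the 11263 tested genes (7.25%) had a higher mean. It was also the highest of 48 nuclear receptor genes looked at, ahead of the orphan receptor gene Nr2f1 at 54.4 FPKM. The next members were the rows of Nr3c1 at 19.5 and 17.9 FPKM, followed by Rxrb (13.7), Rara (10.3), Ppard (6.71) and Rxra (5.30 FPKM). Rarb (0.981), Thrb (0.560), Rxrg (0.0854) and Vdr (0.0218 FPKM) lay below the filter. The order was clear at 4 places, where the ranges over 8 libraries did not touch: Thra above Nr3c1, Rara above Ppard, Rxra above Rarb, and Thrb above Rxrg. Elsewhere neighbours overlapped. Rxrb was above Rara in 7 of 8 libraries, Ppard above Rxra in 6, Rarb above Thrb in 7, and either Nr3c1 row was the higher one in 4.

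**Figure D1:**
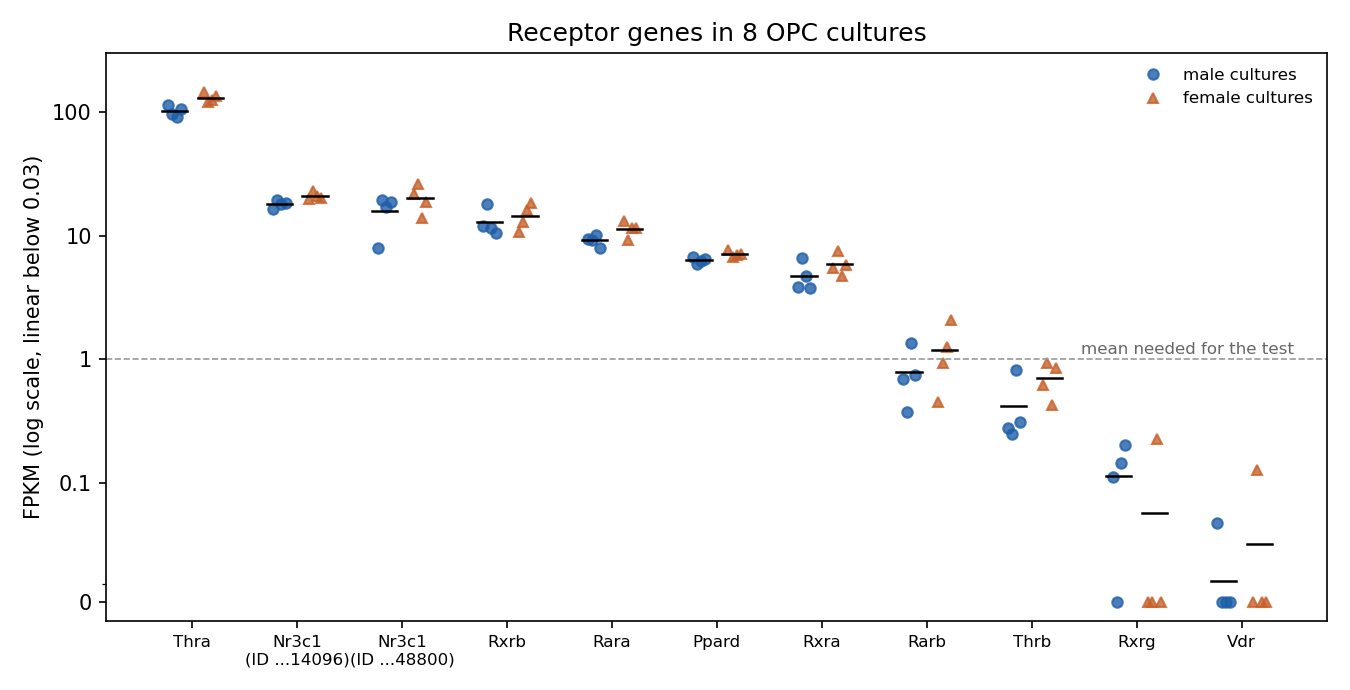
FPKM of each receptor gene row (log axis, linear below 0.03) in 4 male (circles) and 4 female cultures (triangles), with black bars for the group means and a dashed line at the mean of 1 FPKM needed for the test. Thra lies above 90 FPKM in every library, while Rxrg and Vdr are at 0 in 4 and 6 of the 8.

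Among the thyroid hormone receptors, Thra was lower in male than in female cultures. Thra stood at 113, 97.0, 90.3 and 105 FPKM in male 1 to 4, against 144, 121, 124 and 134 FPKM in female 1 to 4. Every male library was below every female one, with means of 101 ± 9.83 and 131 ± 10.4 FPKM (SD, n = 4 each) and a ratio of 0.775. Thra fell in male cultures by 0.37 on the log2 scale (SE 0.0843, limma adjusted p = 0.0282). It was the only receptor row called, where 6.04% of all tested genes were called in either direction 2.89% as lower and 3.14% as higher in male cultures. In these bulk samples fewer cells of a type and less RNA per cell cannot be told apart. The summed levels of microglia, OPC and maturation markers given above were lower in male cultures too, though 6 of 14 tested maturation markers lay above 0. The part of these markers in the Thra difference was not tested.

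The direction of the Thra difference held in each alternative run, from -0.31 without male 3 to -0.44 without male 1 and female 3 together, but the call did not. It was lost without male 2 (adjusted p = 0.0897), male 3 (0.0862), male 4 (0.0580), female 1 (0.0755) or female 4 (0.0879), and also once relative depth entered the model (0.0756). Without male 1 and female 3 the adjusted p was 0.0161. In the RefSeq gene table Thra overlaps Nr1d1, a clock repressor gene, and Med24, both on the opposite strand. The use of strand in the authors' counting is not given in the sources used here, so reads of the overlap may be shared. Nr1d1 itself had 5.00 to 6.36 FPKM in male and 4.01 to 5.54 FPKM in female cultures and was not called (0.14 ± 0.14, adjusted p = 0.622). The table has 1 row for Thra, so its hormone-binding and non-binding splice forms are not separated.

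Thrb, which encodes the beta receptor, was scarce. It had 0.276, 0.249, 0.823 and 0.310 FPKM in male 1 to 4, against 0.620, 0.925, 0.423 and 0.850 FPKM in female 1 to 4, and it was not tested. The groups overlapped because male 3 was near the highest female libraries. Thra made up 99.1% to 99.8% of the summed thyroid receptor FPKM in male and 99.2% to 99.7% in female cultures.

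**Figure D2:**
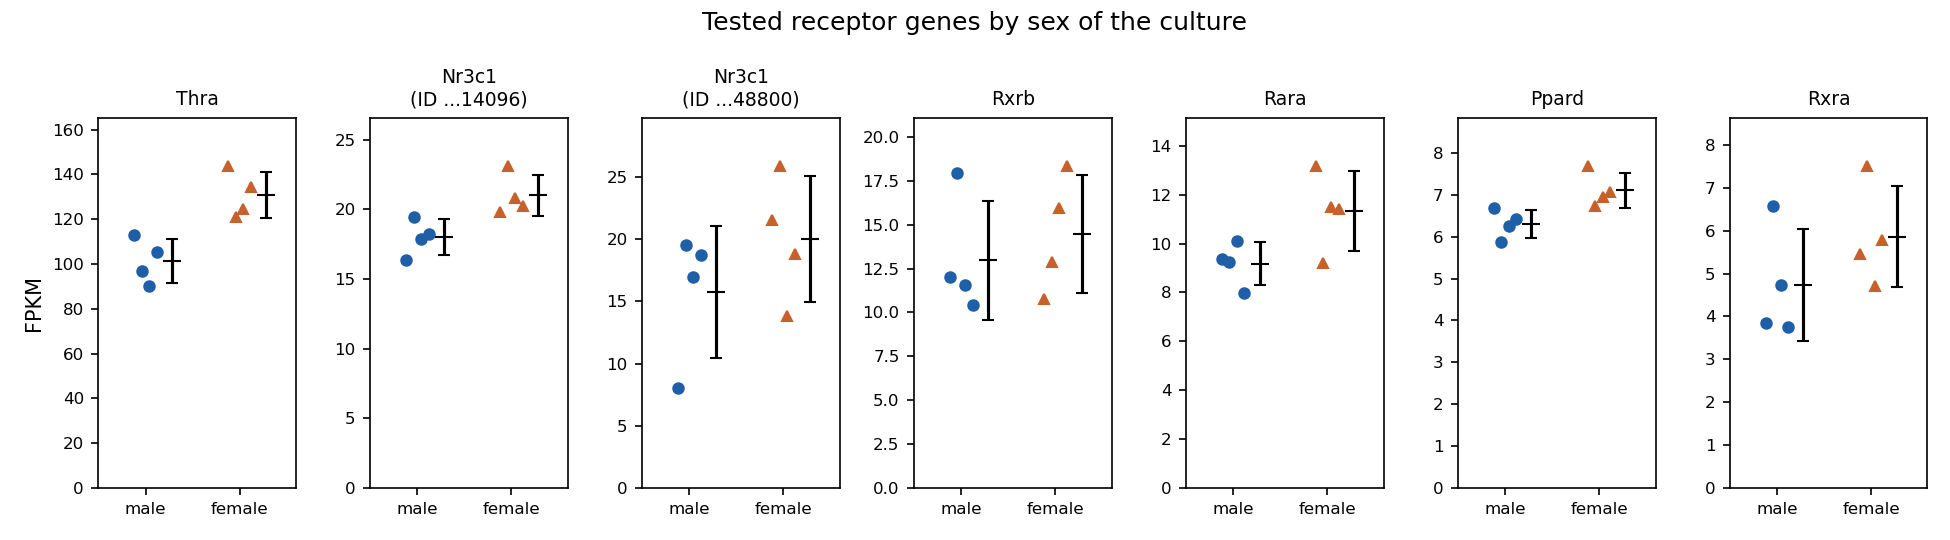
FPKM of the 7 tested receptor rows in male (circles) and female (triangles) cultures on axes that start at 0, with mean ± SD (n = 4 each) in black; Nr3c1 has 2 rows, named by the last digits of their gene IDs. For Thra, the first Nr3c1 row and Ppard all male points lie below all female ones, and only Thra was called.

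The 3 tested genes whose pattern over the 8 libraries was most like that of Thra, by Pearson r of log2(FPKM + 1), were Gaa (r = 0.994), Omg (0.988) and Cacng4 (0.987). Omg encodes oligodendrocyte myelin glycoprotein and had 70.3 ± 6.54 FPKM in male and 98.1 ± 7.27 FPKM in female cultures (-0.48 ± 0.08, limma adjusted p = 0.00836). Gaa encodes the lysosomal acid alpha-glucosidase (21.0 ± 2.62 against 28.4 ± 2.28 FPKM, adjusted p = 0.0357, a call lost when any library but male 1 or female 2 was left out), and Cacng4 a calcium channel gamma subunit family member (155 ± 8.94 against 179 ± 6.33 FPKM, adjusted p = 0.0743). These correlations rest on 8 points that fall into 2 groups by sex and are given as a description.

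Of genes that move, convert or answer to thyroid hormone none was called by limma, although 6 had an unadjusted p under 0.05. Of 14 such genes 8 were tested, 4 on each side of 0, and their median difference was -0.06 on the log2 scale, where that of all tested genes was -0.0038. The 6 with an unadjusted p under 0.05 also lay on both sides of 0. How many of all tested genes reached that unadjusted p is not given here, so the 6 have no background share. The amino acid and thyroid hormone transporter gene Slc7a5 had 209, 218, 219.6 and 216 FPKM in male 1 to 4, against 185, 193, 199 and 178 FPKM in female 1 to 4 (0.19 ± 0.06, limma adjusted p = 0.0749). Its groups did not overlap, and it was called without female 3 and without male 1 and female 3. Slc7a8, another amino acid transporter gene whose product carries thyroid hormone, lay the other way with a larger difference, at 0.833 to 1.11 FPKM in male and 1.58 to 2.81 FPKM in female cultures. Its groups did not overlap either, and it was not called (-0.58 ± 0.19, adjusted p = 0.112). Klf9, a direct target of the liganded receptor, is also 1 of the glucocorticoid response genes below. It lay at 1.69 to 3.34 FPKM in male and 3.27 to 4.52 FPKM in female cultures. Its groups overlapped and it was not called (-0.40 ± 0.18, limma adjusted p = 0.233). Nrgn had the largest difference of the thyroid list and lay higher in male cultures. It had 8.68 to 19.6 FPKM in male and 4.37 to 8.92 FPKM in female cultures and was not called (0.85 ± 0.28, limma adjusted p = 0.113). Dio2, whose enzyme makes the active hormone, was listed at 0 in all 8 libraries. Dio3, whose enzyme inactivates it, was above 0 only in female 4 (0.221 FPKM).

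Retinoid X receptors, the common partners, were not called. Rxrb stood at 12, 18.0, 11.5 and 10.4 FPKM in male 1 to 4, against 10.7, 12.9, 15.9 and 18.4 FPKM in female 1 to 4. Rxra stood at 3.86, 6.57, 4.73 and 3.76 FPKM in male 1 to 4, against 5.45, 7.51, 4.71 and 5.78 FPKM in female 1 to 4. Both were highest in male 2 among male cultures, and the groups overlapped for both. The log2 difference was -0.15 for Rxrb (95% interval -0.56 to 0.26, limma adjusted p = 0.704) and -0.27 for Rxra (-0.67 to 0.13, adjusted p = 0.445). These intervals leave room for a change as large as that of Thra. Rxrb overlaps Slc39a7 in the RefSeq table, on the opposite strand, so its level may hold reads of that gene.

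Rxrb made up most of the retinoid X receptor FPKM. Its share was 75.2%, 73.2%, 70.3% and 72.4% in male 1 to 4, against 66.3%, 63.2%, 76.4% and 76.1% in female 1 to 4. The male shares lay inside the female range, in which female 1 and female 2, the shallowest libraries, were lowest. Rxrg, which encodes the gamma form, was seen at 0.111, 0.145 and 0.200 FPKM in male 1, 3 and 4 and at 0.227 FPKM in female 3, and was listed at 0 in the other 4 libraries. Scaled by relative depth, each value lay within 0.0004 of a whole number of steps: 1 step each in the male libraries and 2 in female 3. If a step is 1 fragment, 3 male and 2 female fragments were counted in all, too few to set the sexes apart. Summed over the 3 genes, retinoid X receptors reached 14.4 to 24.6 FPKM in male and 16.2 to 24.1 FPKM in female cultures. Thra alone was 3.95 to 7.34 times that sum in male and 5.57 to 8.88 times in female cultures.

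**Figure D3:**
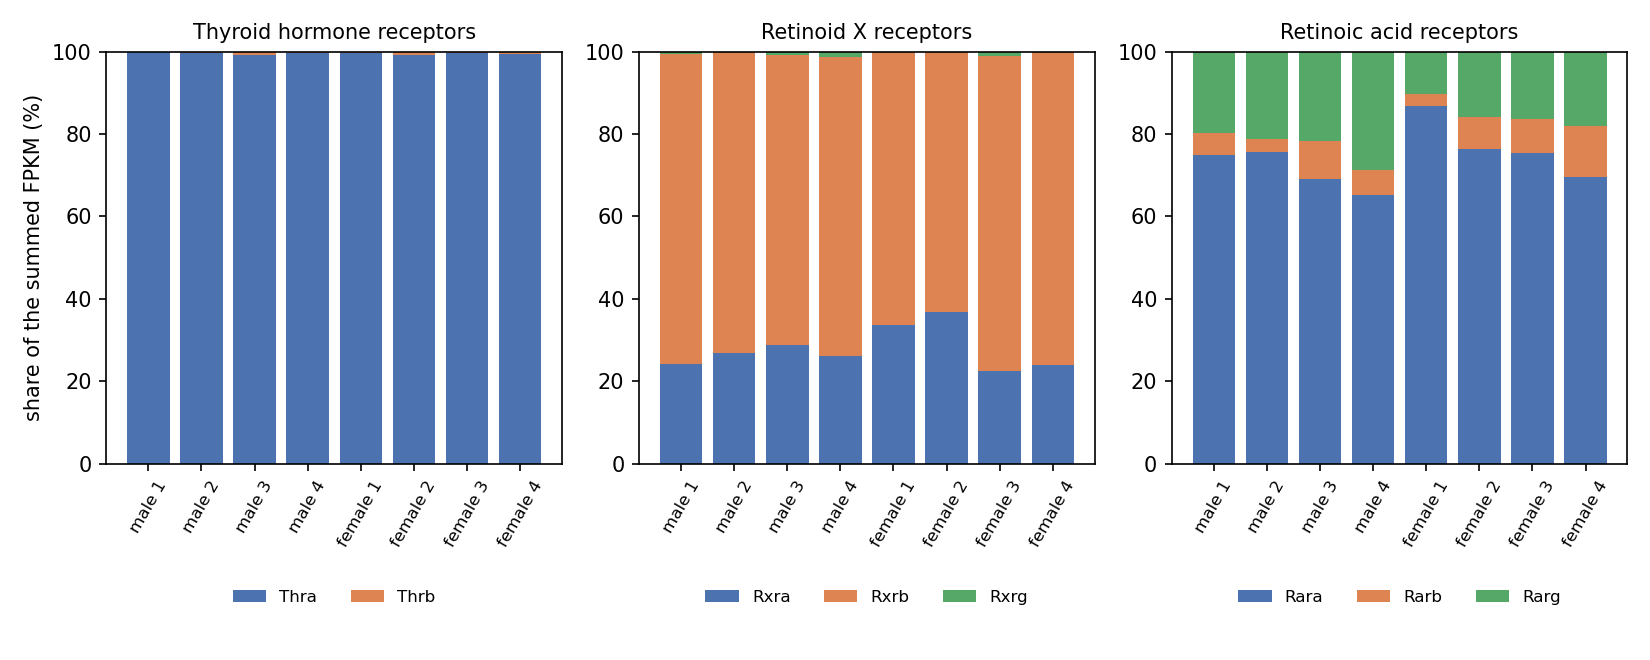
Share of the summed FPKM (%) of thyroid hormone, retinoid X and retinoic acid receptor genes held by each family member, per library, male cultures left of female ones. Thra holds over 99% of its family, Rxrb 63.2% to 76.4% and Rara 65.1% to 86.8%.

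Among retinoic acid receptors Rara led. It had 9.37, 9.26, 10.1 and 7.98 FPKM in male 1 to 4, against 13.2, 9.21, 11.5 and 11.4 FPKM in female 1 to 4. Of the female libraries only female 2 fell within the male range, and the gene was not called (-0.27, 95% interval -0.55 to 0.0060, limma adjusted p = 0.246). Rara made up 65.1% to 75.7% of the summed FPKM of Rara, Rarb and Rarg in male and 69.4% to 86.8% in female cultures. Rarg, the gamma receptor gene and no member of the set, held between 19.7% and 28.8% in male cultures and between 10.2% and 18.0% in female ones. Rarb, the beta receptor gene, had 0.686, 0.372, 1.34 and 0.740 FPKM in male 1 to 4, against 0.452, 0.936, 1.26 and 2.06 FPKM in female 1 to 4. The groups of Rarb overlapped widely and its mean missed the filter by little.

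Rarb is itself a textbook target of retinoic acid, through a response element at its own start. The promoter windows of RefSeq (build GRCr8, 250 bases before to 50 after a start) were searched on both strands for pairs of hexamers in 1 direction, each either the consensus AGGTCA or a variant of it (GGGTCA for one, AGTTCA for another, GGTTCA being the last allowed), with 5 bases between them, the spacing known for retinoic acid receptors. Of 11 windows of 9 member genes only the Rarb window had such a pair, and of 140 windows of pathway list genes only that of Cyp26a1, whose enzyme degrades retinoic acid. Of all 33469 windows 128 (0.382%) had one. Both windows are shown because they were the only member or pathway list windows with such a pair, which is given in capitals. Retinoic acid is known to induce both genes. In the Rarb window (chr15:11336142-11336441, plus strand) the pair runs from base 25 to 41 after the start. In the Cyp26a1 window (chr1:244883572-244883871, plus strand) it lies from base -92 to -76, on the opposite strand.
Rarb: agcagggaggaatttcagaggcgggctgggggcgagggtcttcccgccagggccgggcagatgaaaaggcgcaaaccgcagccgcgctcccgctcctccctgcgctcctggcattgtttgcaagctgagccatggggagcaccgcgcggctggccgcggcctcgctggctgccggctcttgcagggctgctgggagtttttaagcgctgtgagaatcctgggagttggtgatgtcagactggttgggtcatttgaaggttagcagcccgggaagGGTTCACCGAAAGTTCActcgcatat
Cyp26a1: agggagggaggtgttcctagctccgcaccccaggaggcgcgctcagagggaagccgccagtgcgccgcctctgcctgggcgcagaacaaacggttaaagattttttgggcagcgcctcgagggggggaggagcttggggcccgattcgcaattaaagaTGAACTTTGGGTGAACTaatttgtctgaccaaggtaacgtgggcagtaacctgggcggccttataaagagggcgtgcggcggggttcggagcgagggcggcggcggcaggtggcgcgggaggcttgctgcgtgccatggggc
A match is a stretch of letters, not a bound site. The same windows of members held no pair with a spacing of 1, 3 or 4 bases and no glucocorticoid response element in its full form, AGAACA followed after 3 bases by TGTTCT, which 0.0149% of all windows held.

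Cyp26a1 was listed at 0 in all 8 libraries, as were Cyp26c1 and Tgm2, other genes known to answer to retinoic acid. Cyp26b1 and Dhrs3 of the same list were above 0 in most libraries, at up to 0.453 and 0.858 FPKM, and lay below the filter. Of 22 genes that handle or answer to retinoids 8 were tested, and 1 was called, where 6.04% of all tested genes were. The list had 4 tested genes on each side of 0 and a median of -0.10. Rdh11, a retinal reductase gene and the highest of the list, was not called (29.1 ± 2.54 against 27.6 ± 2.82 FPKM, adjusted p = 0.710).

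Vdr was at the limit of detection. It was listed at 0 in 6 libraries and had 0.0468 FPKM in male 1 and 0.128 FPKM in female 2, each 1 step. Cyp24a1, which vitamin D receptors are known to induce strongly, was listed at 0 throughout, and of 10 genes of vitamin D handling and response only Trpv6, a calcium channel gene, passed the filter (limma adjusted p = 0.815, unadjusted p = 0.598).

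Nr3c1, the glucocorticoid receptor gene, was the second most abundant member, and its 2 rows are given apart. The row ENSRNOG00000014096 had 16.4, 19.5, 17.9 and 18.3 FPKM in male 1 to 4, against 19.8, 23.1, 20.8 and 20.2 FPKM in female 1 to 4. All male libraries were below all female ones, by a small margin, and the row was not called (-0.21, 95% interval -0.41 to -0.012, limma adjusted p = 0.211). The row ENSRNOG00000048800 had 8.0, 19.5, 16.9 and 18.7 FPKM in male 1 to 4, against 21.5, 25.9, 13.8 and 18.8 FPKM in female 1 to 4. It was lowest in male 1 and, among female cultures, in female 3, and the groups overlapped (-0.36, 95% interval -0.98 to 0.26, adjusted p = 0.513). The second row was 0.488 times the first in male 1 and 0.663 times in female 3, and between 0.930 and 1.12 times in the other 6 libraries. Nothing in the table says how the rows divide the gene, so reads may be split between them.

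Of 13 genes of glucocorticoid handling 7 were tested, with a median of 0.19 and 5 of 7 above 0. Of them 1 was called, where 6.04% of all tested genes were. Hsp90ab1, the most abundant, had 1044 ± 57.4 FPKM in male and 1102 ± 21.6 FPKM in female cultures (adjusted p = 0.463). The tested row of Hspa8 had 754 ± 22.6 and 757 ± 17.9 FPKM (adjusted p = 0.956), and a second Hspa8 row lay below the filter with a mean of 0.126 FPKM. Hsp90aa1, the other cytoplasmic Hsp90 gene, was far lower, with 8.41 ± 2.05 FPKM in male and 8.11 ± 1.28 FPKM in female cultures (adjusted p = 0.942). The called gene was Fkbp5, a co-chaperone that lowers the receptor's affinity for hormone and is itself induced by glucocorticoids. It had 24.9, 33.3, 26.3 and 33.5 FPKM in male 1 to 4, against 20.5, 22.3, 23.2 and 16.9 FPKM in female 1 to 4 (0.49 ± 0.13, limma adjusted p = 0.0498). All male libraries were above all female ones. The call stood at the threshold and was lost without any single library except male 1 and female 3 (adjusted p up to 0.144). It was also lost with relative depth in the model (0.0850), the replicate block (0.112), no filter (0.0865), a pseudocount of 0.1 (0.0504) or without the robust option (0.0544). The enzyme genes Hsd11b1 and Hsd11b2 and the mineralocorticoid receptor gene Nr3c2 were below the filter.

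Of 25 glucocorticoid response genes 19 were tested, and 4 were called, 1 higher and 3 lower in male cultures, where 3.14% of all tested genes were called as higher and 2.89% as lower. The median was 0.06, and the higher one was Fkbp5, whose call stood at the threshold. Besides Fkbp5 these were Ddit4, whose product restrains mTOR, Tle3, a corepressor gene, and Sgk1, the serum and glucocorticoid regulated kinase. Ddit4 had 48.0, 39.1, 36.2 and 46.0 FPKM in male 1 to 4, against 62.0, 70.7, 57.7 and 69.3 FPKM in female 1 to 4 (-0.61 ± 0.10, limma adjusted p = 0.00759). It kept its call with each library left out (adjusted p up to 0.0315). Sgk1 had 13.7 ± 1.40 FPKM in male and 18.5 ± 0.628 FPKM in female cultures (-0.41 ± 0.09, adjusted p = 0.0295), and Tle3 21.1 ± 1.56 and 30.0 ± 4.11 FPKM (-0.48 ± 0.11, adjusted p = 0.0223). Leaving out male 2, male 3, male 4 or female 4 ended the calls of Sgk1 and Tle3, and leaving out female 1 or female 2 that of Sgk1 too (highest adjusted p 0.0912 for Sgk1 and 0.0700 for Tle3). Relative depth in the model also ended both calls (0.0633 for Sgk1 and 0.0642 for Tle3), and the replicate block that of Sgk1 (0.0816). Tsc22d3 and Per1, which glucocorticoids are known to induce in many cells, were not called (6.30 to 9.21 against 4.94 to 9.12 FPKM, and 6.53 to 7.26 against 6.08 to 6.99 FPKM; adjusted p = 0.792 and 0.799). Glul, the glutamine synthetase gene and the highest of the list, was not called either (adjusted p = 0.741).

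Ppard, which encodes PPAR delta, had the smallest SD relative to its mean among the tested members. It had 6.68, 5.87, 6.25 and 6.41 FPKM in male 1 to 4, against 7.69, 6.73, 6.95 and 7.06 FPKM in female 1 to 4. The groups did not overlap, although male 1 and female 2 differed by under 0.1 FPKM, and the gene was not called (-0.15, 95% interval -0.39 to 0.093, limma adjusted p = 0.488). The related receptor genes Ppara and Pparg were below the filter. Of 24 partner and fatty acid response genes 17 were tested, 13 of them below 0, with a median of -0.19, where 50.7% of all tested genes were below 0. Called as lower in male cultures were 2 of the 17, where 2.89% of all tested genes were. They were Ucp2, a mitochondrial carrier gene, and Acaa2, a thiolase gene of fatty acid oxidation. Ucp2 had 1.93, 1.00, 1.62 and 0.496 FPKM in male 1 to 4, against 3.65, 4.90, 4.50 and 4.66 FPKM in female 1 to 4 (-1.30 ± 0.22, adjusted p = 0.00705). Acaa2 had 9.57 ± 2.80 FPKM in male and 16.9 ± 1.74 FPKM in female cultures (-0.79 ± 0.17, adjusted p = 0.0225), and lost its call when male 2, male 4, female 1, female 2 or female 4 was left out (highest adjusted p 0.0721), with relative depth in the model (0.0507) and with the replicate block (0.0549). Microglia markers, at 68.9 to 88.1 against 206 to 255 FPKM in sum, differed in the same direction as both genes, and their part was not tested. The PPAR targets Pdk4 and Angptl4 were at or near 0, and the fatty acid binding protein genes Fabp7 (733 ± 73.2 against 774 ± 12.5 FPKM, adjusted p = 0.549) and Fabp5 (489 ± 34.0 against 392 ± 65.3 FPKM, adjusted p = 0.0914) were abundant and not called.

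**Figure D4:**
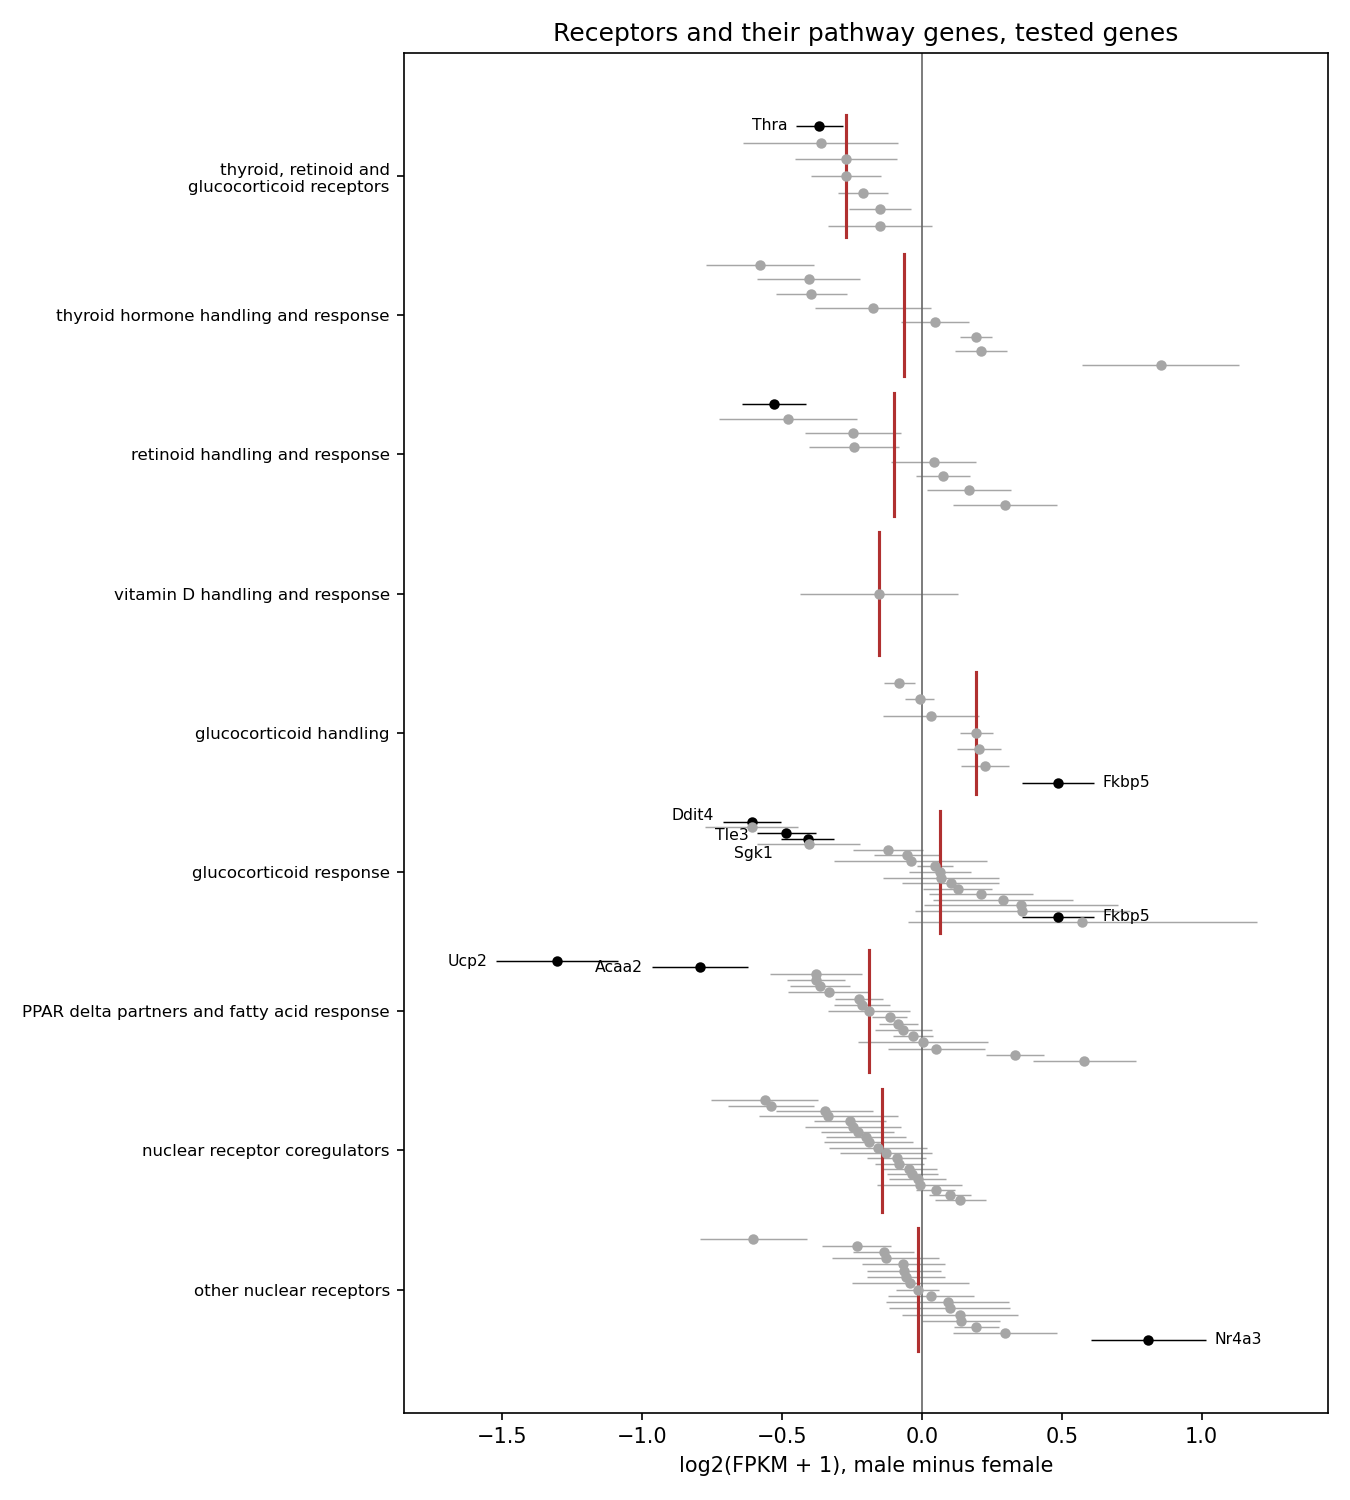
Log2(FPKM + 1) of male minus that of female cultures, with its SE, for each tested receptor row and each tested gene of 8 pathway lists; black points were called, most of them with their names, and grey ones were not, and red bars are the medians. The 7 receptor rows lie between -0.37 and -0.15, and 7 of the 8 lists have tested genes on both sides of 0, the exception being the vitamin D list with its 1 tested gene.

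As a group, the 7 tested rows all had a negative log2 difference, with a median of -0.27, where 50.7% of all tested genes were below 0. They stand for 6 genes, because Nr3c1 counts with 2 rows that may share its reads and are not independent. For 3 of the 7 (Thra, 1 Nr3c1 row and Ppard) male values did not overlap with female ones and were lower, against 6.77% of all tested genes. The 4 genes below the filter are not in these counts, and of them Rxrg had the higher mean in male cultures (0.114 against 0.0567 FPKM). The coregulators that receptors recruit were all tested (20 of 20), and none was called by limma. An unadjusted p under 0.05 was seen for 2, with no share over all tested genes to set beside it. Of the 20 genes 17 were below 0, with a median of -0.14. Without female 3, 2 were called as lower in male cultures, in a run that called 808 genes in all against 680 in the main fit. Among the 2 was the acetyltransferase gene Ep300 (limma adjusted p = 0.0307). In the main fit the groups of Ep300 overlapped and it was not called (adjusted p = 0.114). The most abundant coregulator genes, Prmt1 (165 ± 9.27 against 154 ± 12.9 FPKM) and Thrap3 (71.5 ± 1.43 against 69.2 ± 5.24 FPKM), lay slightly above 0 and were not called. Of 38 other nuclear receptor genes 17 were tested, 9 below and 8 above 0 with a median of -0.02. Of them 1 was called, where 6.04% of all tested genes were. Nr4a3, an immediate early orphan receptor gene, was called as higher in male cultures (1.76 ± 0.412 against 0.571 ± 0.171 FPKM, 0.81 ± 0.21, adjusted p = 0.0412), and it lost that call with any single library left out (adjusted p from 0.0544 to 0.134) and with relative depth in the model (0.0850), the replicate block (0.114), a pseudocount of 0.1 (0.0602) or quantile normalization (0.0632).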

How the data were processed

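The authors deposited FPKM values, 1 per gene and library, per the file header. Per the submitters' processing notes, Trimmomatic and FastQC were used, and the libraries were made with a strand-specific Agilent SureSelect kit per the labels. For the aligner, the counter, the build and the use of strand, each is not given in the sources used here. Because FPKM is relative to the library's size, abundant genes can shift all others. The sum of FPKM was 648383 to 773919 per library, and 12709 to 14014 genes were above 0.

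Sex and number came from the titles. Values were taken as log2(FPKM + 1), and limma 3.58.1 in R 4.3.3 (trend, robust) was fitted to sex over the 11263 genes whose mean reached 1 FPKM, with Benjamini-Hochberg adjustment. FPKM fold changes of low genes are understated by the pseudocount. Relative depth is the commonest ratio to male 1 among genes whose mean was under 0.5 FPKM. The test was tried on simulated data of this comparison (5 runs, 11263 genes, 200 of them changed). There limma recovered 35.6% of changes of 0.5 on the log2 scale and 78.6% of those of 1. Of the calls made, 6.53% were of unchanged genes. The simulated spread was drawn separately for each gene and library, without departures shared across genes or effects of depth. These rates therefore need not hold for the deposited libraries. Promoter windows came from RefSeq, with 9 of 10 members matched.

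Members and lists were chosen with earlier results of these data known. Named are the members, called list genes (at most 6 a list), the 2 most abundant tested genes of a list and the 3 genes most like a called member. Other names, such as Klf9, Nrgn, Slc7a8, Hsp90aa1, Dio2, Dio3, Tsc22d3, Per1, Ep300 and the genes listed at 0, were chosen after their values were seen. So were Cyp26b1 and Dhrs3. A few genes that the rule would name are not reported here. Some named marker genes are given only through their list.

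Alternatives were pseudocounts of 0.1 and 5, no filter, a stricter filter at 5 FPKM, the replicate number as a block, quantile normalization, relative depth as a covariate, moderation without the robust option, each library left out, and male 1 and female 3 left out together.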

Additional observations from a re-analysis of the deposited data

Results flagged for a closer look

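Of 86 groups of 4 libraries looked at (the members and the named genes in each sex), 6 held a library far from the other 3 by Dixon's test, which chance gives in about 1 of 20 groups. Thrb was high in male 3 at 0.823 FPKM. Rxrg was high in female 3 at 0.227 FPKM, and Vdr in male 1 at 0.0468 FPKM and in female 2 at 0.128 FPKM, in groups otherwise at 0. In such a group any value above 0 meets the criterion, so these 3 were bound to be picked out, the chance rate does not apply to them, and each is only 1 or 2 steps of the lowest countable value. Outside the members, the orphan receptor gene Nr4a1 was high in male 4 at 28.8 FPKM, and the neuronal microtubule gene Map2, which OPCs can also express, in female 1 at 244 FPKM.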

How the results depend on the processing

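Of the refits of the 7 tested receptor rows 113 kept direction and side of the threshold, and 6, all of Thra, lost the call while no sign changed. Most of the 113 are of rows that were uncalled in the main fit and had no call to lose. With 1 library left out the Thra adjusted p lay between 0.0163 and 0.0897. Same-numbered libraries did not deviate together (r from -0.0851 to 0.0767), so the numbers were not taken as pairs. With the replicate block 397 genes were called in place of 680, 4 of the pathway genes in place of 8, and by list 0 for glucocorticoid handling, 2 for glucocorticoid response, 1 for PPAR delta and 0 for other receptors, while Thra kept its call (adjusted p = 0.0317). With relative depth as a covariate these counts were 367 and 2, with 0 members, 0 retinoid, 0 handling, 1 response, 1 PPAR delta and 0 other receptor genes. Glucocorticoid handling had 0 calls with a pseudocount of 0.1, with no filter and without the robust option. Other receptors had 0 with a pseudocount of 0.1, a mean of at least 5 FPKM and quantile normalization. The retinoid list had 2 with no filter, and the PPAR delta list 1 with a mean of at least 5 FPKM. Without male 1 and female 3 calls numbered 882 for all genes, 1 for thyroid, 0 for retinoid, 2 for handling, 2 for coregulator and 0 for other receptor genes. With 1 library left out the ranges were 296 to 808 for all genes, 0 to 1 for members, 2 to 13 for pathway genes, 0 to 1 for thyroid, 0 to 1 for retinoid, 0 to 2 for handling, 1 to 5 for response, 1 to 3 for PPAR delta, 0 to 2 for coregulator and 0 to 0 for other receptor genes. Sign changes were seen in uncalled genes near 0: Hspa8 (-0.027 to 0.0044), Nr2f1 (-0.0493 to 0.0257) and Map2 (-0.22 to 0.0577, and 0.0557 with relative depth). The cause was not tested. Absolute depth is unknown, which limits what can be said of Rxrg, Vdr, Thrb and Rarb.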

Other observations

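Crabp1, which encodes a cytoplasmic retinoic acid-binding protein, was picked after its values were seen and lay below the filter. It had 1.65, 1.79, 0.858 and 1.77 FPKM in male 1 to 4, against 0, 0, 0.668 and 0 FPKM in female 1 to 4. With no filter it was called as higher in male cultures (1.13, limma adjusted p = 0.0264). The estrogen and progesterone receptor genes were near 0 in both sexes: Esr1 was above 0 only in male 1 (0.0406 FPKM) and female 1 (0.134 FPKM), Esr2 only in female 2 (0.408 FPKM), and Pgr was at most 0.125 FPKM in male and 0.130 FPKM in female cultures.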
